A study of Mus musculus with 24 samples.

Results

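Immediate-early genes were followed in E12.5 mouse liver, in cells that had been dissociated in the presence of transcription inhibitors. The genes were 10 rows of the deposited expression table, selected by name among 25361 genes: *Fos*, *Fosb*, *Jun*, *Junb*, *Jund*, *Egr1*, *Ier2*, *Atf3*, *Dusp1* and *Nr4a1*. All 10 names were present, and each was read in all 24 libraries. *Atf3*, *Jun*, *Dusp1*, *Nr4a1* and *Fos* had mean TPM several times higher in the endothelial fraction than in the remaining liver cells. *Junb* was higher in the remaining liver cells, and *Fosb* was close to absent from both.

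Immediate-early genes are switched on within minutes of a stimulus, without new protein synthesis, by factors that already sit in the cell. Growth factor signals reach them through MAP kinases and the serum response factor, which binds CArG boxes, whereas cyclic AMP, stress and calcium signals reach them through CREB and ATF proteins. FOS and JUN family proteins pair to form AP-1, a transcription factor that then acts on a second wave of genes. Enzymatic dissociation of a tissue at 37°C is itself such a stimulus, so these transcripts are commonly read as a record of handling as well as of physiology. Actinomycin D and triptolide block transcription and anisomycin blocks translation, and all of these inhibitors were present in the digestion with collagenase B, DNase and dispase.

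Liver cells of single embryos were split with CD146 beads into a bound fraction (LSEC) and an unbound fraction (non-EC). CD146 is a surface adhesion molecule of endothelial cells encoded by *Mcam*. Both fractions came from 4 genotypes with 3 replicates each. Control embryos lacked Cre, on a mixed background with both sexes pooled, and carried at least 1 floxed allele of each gene. *Chd4-ECko* embryos were Chd4fl/fl;Brg1fl/+;VE-cadherin-Cre+, *Brg1-ECko* embryos were Chd4fl/+;Brg1fl/fl;VE-cadherin-Cre+, and *Brg1/Chd4-ECdko* embryos were homozygous for both floxed alleles with the same Cre. CHD4 and BRG1 are the ATPases of the NuRD and SWI/SNF chromatin-remodeling complexes. VE-cadherin-Cre acts in endothelial cells and in blood cells that descend from them, and each single mutant was also heterozygous for the other remodeler. No group carried the Cre without floxed alleles.

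Values were TPM, the share of transcripts that a gene takes in its library. They are normalised for gene length and sum to the same total in each library, and do not hold the read depth of each library. Between 12746 and 13219 genes reached 1 TPM in LSEC libraries and between 11450 and 11973 in non-EC libraries. The fractions matched their labels: 12 endothelial markers gave a summed level of 1020 to 2109 TPM per LSEC library, against 62.2 to 120.2 TPM per non-EC library, where *Mcam* stayed under 1 TPM throughout. The LSEC fraction was not purely endothelial, since 10 mesenchymal markers summed to between 1414 and 2309 TPM there, against 31.6 to 123 TPM in the non-EC fraction. Replicate 1 of the *Brg1-ECko* LSECs stood apart, with 31800 TPM of 12 hepatoblast markers against at most 9261 TPM in the other LSEC libraries. The mitochondrial share of TPM was 13.9% to 31.5% for LSECs and 2.33% to 7.69% for non-EC cells. *Chd4* lay between 169 and 351 TPM and *Smarca4*, the gene for BRG1, between 99.9 and 161 TPM in LSECs of every genotype, and neither was called against control by limma in the mutants that delete it (adjusted p between 0.704 and 0.962). Whole-gene TPM can also count transcripts without the floxed exons, so these values do not check the genotype labels. Why no difference was called was not tested. By qRT-PCR on E12.5 LSECs isolated with a LYVE1 antibody, the paper reports lower *Chd4* and *Brg1* transcripts in the mutants concerned.

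Sequence upstream of the start sites was searched for the elements through which such genes are classically reached. The 400 bases before the start of each gene's canonical transcript were read from GRCm39 with the GENCODE annotation and searched on both strands for the CArG box, for TGACNTCA (the cyclic AMP and ATF/JUN element) and for TGANTCA (the AP-1 element). A CArG box was present in 2.2% of 21590 protein-coding genes, TGACNTCA in 9.22% and TGANTCA in 9.86%. *Fos* and *Fosb* held a CArG box, *Jun*, *Jund*, *Ier2* and *Dusp1* held TGACNTCA, and none of the 10 held TGANTCA in this window. No stretch was matched by more than one motif, and *Junb*, *Egr1*, *Atf3* and *Nr4a1* held none of these letters there. The stretches around the matches are shown 5′ to 3′ on the strand of the gene, with the motif in capitals and 20 bases on each side:
Fos, chr12:85520335-85520384, plus strand: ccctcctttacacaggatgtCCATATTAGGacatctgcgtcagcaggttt
Fosb, chr7:19044213-19044262, minus strand: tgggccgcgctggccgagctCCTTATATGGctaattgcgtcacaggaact
Jun, chr4:94940477-94940524, minus strand: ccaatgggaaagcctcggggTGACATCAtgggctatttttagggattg
Jund, chr8:71151365-71151412, plus strand: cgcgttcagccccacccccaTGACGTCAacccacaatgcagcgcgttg
Ier2, chr8:85389499-85389546, minus strand: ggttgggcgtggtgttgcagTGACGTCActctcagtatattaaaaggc
Dusp1, chr17:26727562-26727609, minus strand: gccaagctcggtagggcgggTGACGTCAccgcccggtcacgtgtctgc

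The motif began 303 bases before the start site in *Fos* and 266 bases before it in *Fosb*. It began at 45 bases in *Jun*, 43 in *Ier2*, 96 in *Dusp1* and 214 in *Jund*. These matches are letters in a window and were not tested as binding sites. Only the canonical start of each gene was used. A gene without a match here may therefore hold these motifs near another start or outside the window.

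In LSECs *Jund* stood at the top of the 10 genes and *Fosb* at the bottom. Over the 12 LSEC libraries *Jund* averaged 81.5 ± 8.13 TPM (SD), *Jun* 47.3 ± 10.01, *Ier2* 39.2 ± 5.31 and *Dusp1* 22.2 ± 5.22. *Atf3* followed at 13.9 ± 2.72 TPM, *Junb* at 8.82 ± 1.67, *Egr1* at 4.58 ± 0.817, *Fos* at 4.20 ± 1.22, *Nr4a1* at 3.89 ± 1.46 and *Fosb* at 0.234 ± 0.120 TPM. *Jun* and *Ier2* were not separated by their SDs, nor were *Egr1*, *Fos* and *Nr4a1*, whereas every other pair of neighbours in this order was. *Jund* ranked above 86.5% of the genes at 1 TPM or more in this fraction and *Fos* above 17.1%.

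The order differed in the non-EC fraction, where *Ier2* and *Junb* stood above *Jun*. *Jund* averaged 70.4 ± 13.3 TPM (SD) over the 12 non-EC libraries, *Ier2* 30.0 ± 4.50, *Junb* 13.9 ± 1.72 and *Jun* 11.4 ± 1.92. *Egr1* stood at 6.60 ± 1.82 TPM, *Dusp1* at 5.84 ± 1.65, *Atf3* at 1.71 ± 0.637, *Fos* at 1.38 ± 0.504, *Nr4a1* at 0.969 ± 0.311 and *Fosb* at 0.223 ± 0.146 TPM. *Junb* and *Jun*, *Egr1* and *Dusp1*, and *Atf3*, *Fos* and *Nr4a1* were not separated from their neighbours by their SDs.

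**Figure D1:**
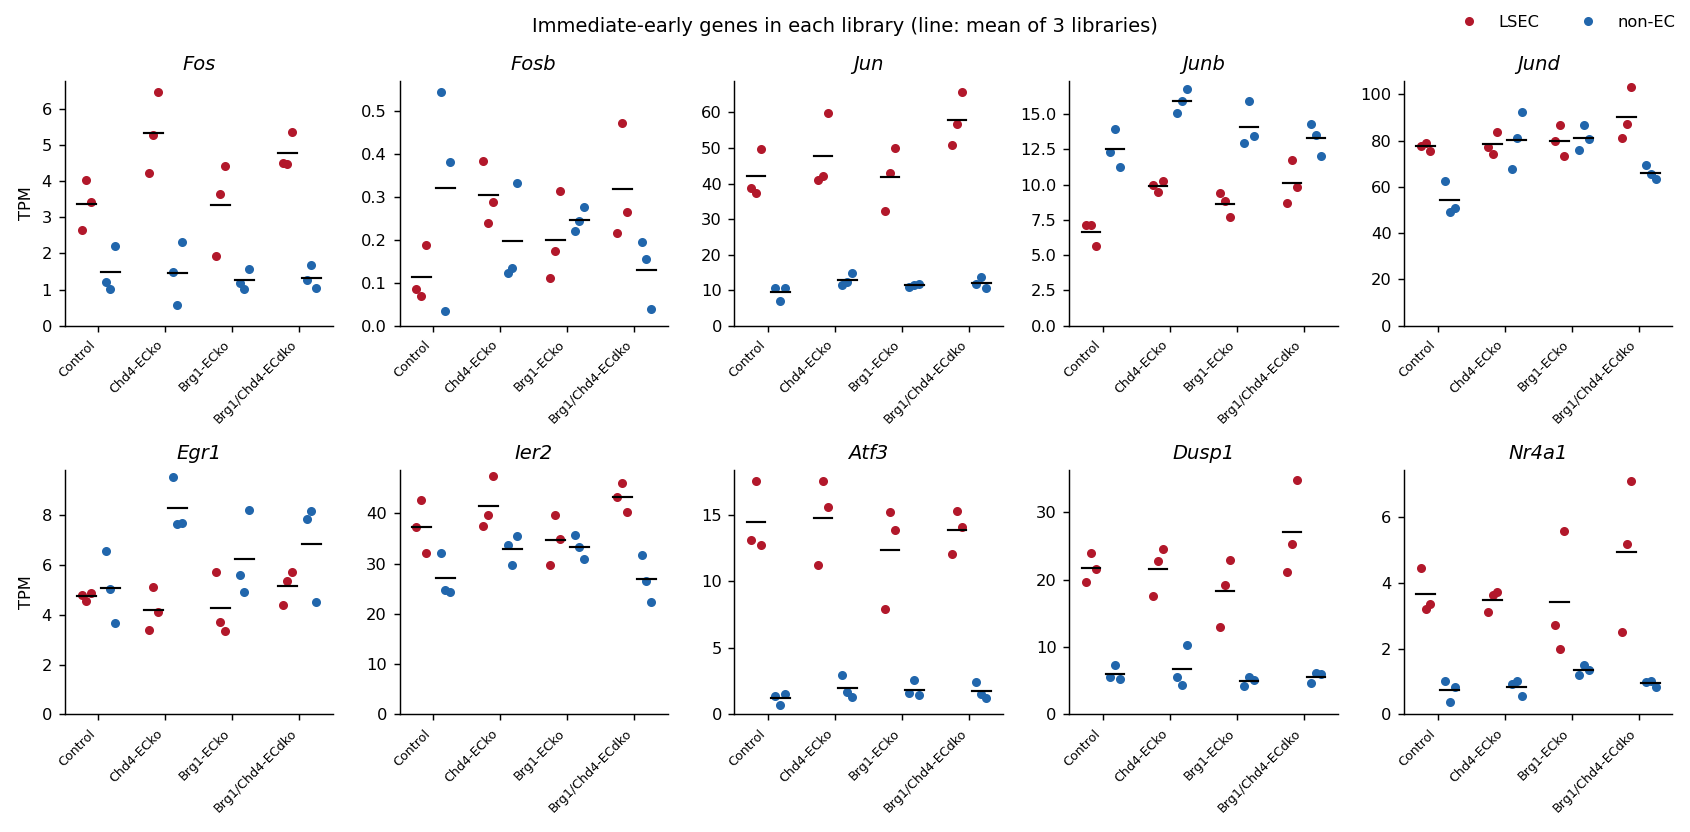
TPM of the 10 immediate-early genes (y axis, linear from 0, its own scale in each panel) by genotype (x axis), with 1 point per library, red for LSEC and blue for non-EC, and a line at the mean of 3 libraries. For *Jun*, *Atf3*, *Dusp1* and *Nr4a1* every red point lies above every blue point, whereas *Fosb* stays under 1 TPM in all 24 libraries.

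The first comparison asked how the endothelial fraction differs from the other liver cells after the same digestion. Libraries were compared with limma on log2(TPM + 1), and genes entered where 3 or more libraries reached 1 TPM, which 9 of the 10 did. *Fosb* did not enter any test. Over the 4 genotypes, 7 of the 9 were higher and 2 were lower in LSECs at an adjusted p under 0.05. The same call was made for 82.6% of the 13775 genes tested (41.4% higher, 41.2% lower), so that a call alone says little here. With a log2 fold change above 1 in size as well, 5 of the 9 passed, against 29% of all genes. Under quantile normalization *Fos* (0.43) and *Nr4a1* (0.58) fell below that fold and 3 of the 9 passed. The median log2 fold change of the 9 was 1.12, and that of all genes tested was -0.00. In bulk RNA, fewer cells of a type and less RNA per cell cannot be told apart.

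Among the FOS and JUN genes tested, *Jun* had the largest log2 fold change between fractions. *Jun* (ENSMUSG00000052684, GRCm39 chr4:94937271-94940459, a single-exon gene) encodes the principal partner of FOS. It lay between 32.3 and 65.9 TPM (median 46.4) in LSEC libraries and between 6.99 and 14.8 TPM (median 11.5) in non-EC libraries. The ranges did not overlap, the ratio of the means was 4.14, and the log2 fold change was 1.95 (SE 0.09, limma adjusted p = 2.57e-14). In controls alone *Jun* stood at 38.9, 37.3 and 49.8 TPM in LSECs and at 10.59, 6.99 and 10.51 TPM in non-EC cells (log2 fold change 2.06, SE 0.18, limma adjusted p = 3.92e-09). LSEC values were higher than those of the library of the same genotype and number in 12 of 12 pairs.

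*Fos* (ENSMUSG00000021250, GRCm39 chr12:85520658-85524047) is the archetype of the family and has a short-lived transcript. It lay between 1.94 and 6.47 TPM (median 4.32) in LSECs and between 0.566 and 2.31 TPM (median 1.24) in non-EC cells, so that the fractions overlapped although LSECs were higher in 12 of 12 pairs. The ratio of the means was 3.05 and the log2 fold change 1.12 (SE 0.13, limma adjusted p = 4.82e-08). In controls, *Fos* was listed at 2.64, 4.03 and 3.42 TPM in LSECs and at 1.22, 1.01 and 2.21 TPM in non-EC cells. The control difference was 0.83 (SE 0.25, limma adjusted p = 0.00641), and it was lost under quantile normalization (0.19, adjusted p = 0.517).

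*Fosb*, a close relative of *Fos*, lay between 0.0692 and 0.471 TPM in LSECs and between 0.0353 and 0.544 TPM in non-EC cells. Neither fraction reached 1 TPM in any library, and the ranges overlapped almost fully. No fold change is given for it, because values this low carry no known number of reads.

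*Junb* ran the other way. *Junb* (ENSMUSG00000052837, GRCm39 chr8:85701113-85705359) encodes a JUN family member that can restrain JUN. It lay between 5.63 and 11.7 TPM (median 9.14) in LSECs and between 11.3 and 16.8 TPM (median 13.7) in non-EC cells. The non-EC library was the higher one in all pairs, since LSECs were higher in 0 of 12, although the ranges of the fractions met at their edges. The log2 fold change was -0.62 (SE 0.07, limma adjusted p = 2.22e-08), and the mean was 1.58 times higher in non-EC cells. In controls it was -0.82 (SE 0.13, limma adjusted p = 1.47e-05), from 7.15, 7.16 and 5.63 TPM in LSECs and 12.3, 13.9 and 11.3 TPM in non-EC cells.

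*Jund* (ENSMUSG00000071076, GRCm39 chr8:71151599-71153265) is the JUN member that most tissues express without stimulation. It lay between 73.2 and 103 TPM (median 79.5) in LSECs and between 49.1 and 92.1 TPM (median 68.4) in non-EC cells, with broad overlap and LSECs higher in 8 of 12 pairs. Its log2 fold change over the 4 genotypes was 0.23 (SE 0.06, limma adjusted p = 0.00149) and in controls 0.51 (SE 0.12, limma adjusted p = 0.000738).

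*Atf3* differed most between the fractions in log2 terms. *Atf3* (ENSMUSG00000026628, GRCm39 chr1:190902493-190950241) encodes a stress-induced factor of the ATF/CREB family that also pairs with JUN proteins. It lay between 7.91 and 17.6 TPM (median 13.96) in LSECs and between 0.743 and 2.97 TPM (median 1.55) in non-EC cells, without overlap. The ratio of the means was 8.12 and the log2 fold change 2.47 (SE 0.13, limma adjusted p = 9.75e-14). In controls *Atf3* stood at 13.1, 17.6 and 12.8 TPM in LSECs and at 1.35, 0.743 and 1.56 TPM in non-EC cells, a difference of 2.81 (SE 0.25, limma adjusted p = 4.23e-09).

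*Dusp1* (ENSMUSG00000024190, GRCm39 chr17:26724564-26781102) encodes a phosphatase that switches MAP kinases off again and is itself an immediate-early gene. It lay between 12.9 and 34.8 TPM (median 22.1) in LSECs and between 4.20 and 10.3 TPM (median 5.57) in non-EC cells. The fractions did not overlap, and the log2 fold change was 1.76 (SE 0.12, limma adjusted p = 1.47e-11) with a ratio of means of 3.80.

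Of the remaining transcription factors, *Nr4a1* (ENSMUSG00000023034, GRCm39 chr15:101151980-101172681), an orphan nuclear receptor, followed the same direction. Its values lay between 1.995 and 7.12 TPM (median 3.50) in LSECs and between 0.374 and 1.504 TPM (median 0.999) in non-EC cells, without overlap, with a ratio of means of 4.01 and a log2 fold change of 1.27 (SE 0.13, limma adjusted p = 1.12e-08). The fold on the log2(TPM + 1) scale is smaller than the ratio of the means because the values are close to the pseudocount. *Ier2* (ENSMUSG00000053560, GRCm39 chr8:85387960-85389483), a small nuclear protein induced by growth factors, lay between 29.7 and 47.4 TPM in LSECs and between 22.5 and 35.6 TPM in non-EC cells. The groups overlapped, LSECs were higher in 11 of 12 pairs, and the log2 fold change was 0.38 (SE 0.07, limma adjusted p = 7.88e-05). In controls it was 0.45 (SE 0.15, limma adjusted p = 0.0101), and 0.36 with an adjusted p of 0.0618 without replicate 2 of the LSEC controls.

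*Egr1* (ENSMUSG00000038418, GRCm39 chr18:34992876-34998049), a zinc finger factor and a classic target of the serum response factor, was the second gene on the non-EC side. It lay between 3.36 and 5.70 TPM (median 4.67) in LSECs and between 3.68 and 9.49 TPM (median 7.09) in non-EC cells, with LSECs higher in 3 of 12 pairs. The log2 fold change over the 4 genotypes was -0.42 (SE 0.11, limma adjusted p = 0.00153). It was -0.21 with an adjusted p of 0.0869 when mitochondrial genes were left out of the total. In controls the groups overlapped, at 4.78, 4.55 and 4.86 TPM against 6.54, 5.03 and 3.68 TPM, and the difference of -0.06 had a 95% confidence interval from -0.52 to 0.40 (limma adjusted p = 0.824).

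In controls alone, 7 of the 9 tested genes were higher, 1 was lower (*Junb*) and *Egr1* was not called, against 67.1% of all genes called (31.3% higher, 35.8% lower). With a log2 fold change above 1 in size as well, 4 of the 9 passed (*Atf3*, *Jun*, *Dusp1* and *Nr4a1*), against 32.7%.

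**Figure D2:**
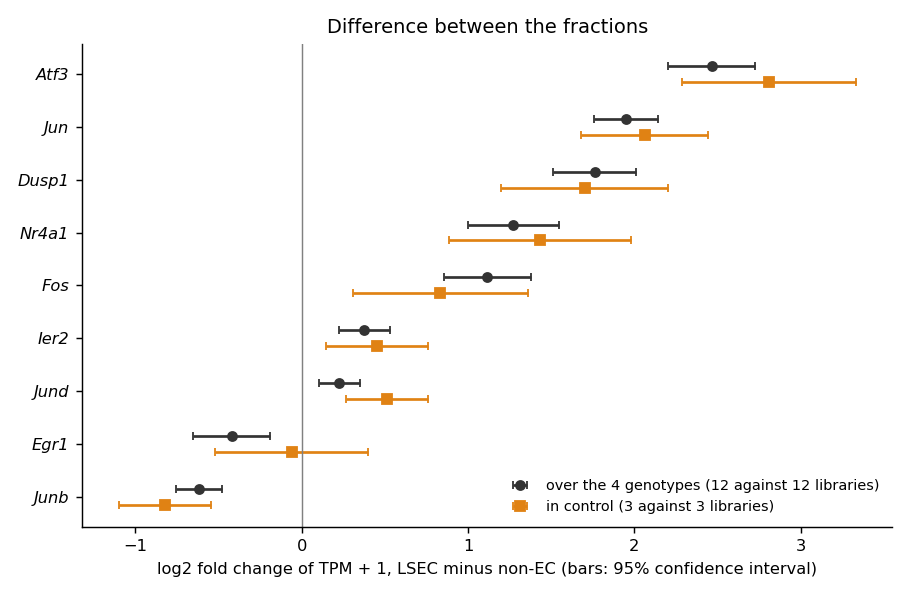
Difference between LSEC and non-EC libraries as the log2 fold change of TPM + 1 (x axis) for the 9 genes tested (y axis), over the 4 genotypes (black circles) and in controls (orange squares), with 95% confidence intervals. Over the 4 genotypes *Atf3* lies furthest to the right at 2.47 and *Junb* furthest to the left at -0.62.

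Cell-type markers differed between the fractions along with these genes. All 12 endothelial and all 10 mesenchymal markers were called higher in LSECs, as were 11 of 16 myeloid markers, with 3 myeloid markers lower. All 12 hepatoblast, 11 erythroid and 9 megakaryocyte markers were called lower. Myeloid markers summed to between 653 and 1572 TPM in LSEC libraries and to between 443 and 931 TPM in non-EC libraries, and no marker was at 0 in all libraries of a fraction. Which cells of each fraction carried the transcripts was not tested. With mitochondrial genes left out of the total, the 9 tested genes kept their direction and *Egr1* alone lost its call. The response to the digestion and the level in the undisturbed liver cannot be told apart either, because every library was digested with the inhibitors.

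Wider lists of the pathway were read beside all genes tested, of which 41.4% were called higher and 41.2% lower in LSECs with a median log2 fold change of -0.00. The lists themselves were not tested. Of 38 other immediate-early genes tested, 28 were higher and 4 lower in LSECs, with a median log2 fold change of 0.91. The 4 with the smallest p were *Id3* (mean 63.6 against 2.99 TPM, log2 fold change 4.06, SE 0.12), *Plk2* (77.7 against 3.83 TPM, 4.09, SE 0.12), *Ier5l* (8.04 against 0.442 TPM, 2.64, SE 0.10) and *Sgk1* (23.1 against 3.47 TPM, 2.43, SE 0.09). *Ier5l* lay between 0.0729 and 1.09 TPM in non-EC libraries and entered the test through its LSEC values. The size of its fold change therefore depends on the pseudocount. *Id3* encodes an inhibitor of bHLH factors, and *Plk2* and *Sgk1* encode kinases. Of 11 AP-1 partners, 7 were higher and 3 lower (median 0.47), led by *Maf* (122 against 10.1 TPM, log2 fold change 3.49, SE 0.14), *Batf3* (24.1 against 2.24 TPM, 2.99, SE 0.16) and *Fosl2* (8.93 against 1.498 TPM, 1.96, SE 0.11). *Mafk*, a small MAF protein, was lower (18.8 against 50.8 TPM, log2 fold change -1.39, SE 0.09).

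Feedback genes end the response. Of 15 such phosphatases, inhibitors and mRNA decay factors, 10 were higher in LSECs, 4 were not called and 1 was lower, with a median of 1.01. The lower one, named after its values were seen, was *Zfp36l2* (log2 fold change -1.09, SE 0.08). The leading ones were *Dusp4* (26.2 against 3.96 TPM, log2 fold change 2.49, SE 0.11), *Spry4* (12.2 against 2.98 TPM, 1.74, SE 0.11), *Dusp6* (57.8 against 18.4 TPM, 1.60, SE 0.10) and *Zfp36l1* (116 against 48.3 TPM, 1.24, SE 0.08). *Dusp4* and *Dusp6* dephosphorylate MAP kinases, *Spry4* restrains receptor tyrosine kinase signalling, and *Zfp36l1* destabilises AU-rich transcripts.

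Heat shock and other dissociation-linked genes were divided, with 6 of 17 higher and 9 lower (median -0.40). *Hspb1*, a small heat shock protein, was higher in LSECs (18.8 against 2.49 TPM, log2 fold change 2.49, SE 0.15). *Hsph1* (137 against 313 TPM, -1.18, SE 0.09), *Hspd1* (923 against 2305 TPM, -1.33, SE 0.11), both chaperones, and *Mt1* (168 against 623 TPM, -2.02, SE 0.17), a metallothionein, were lower. Among 21 upstream kinases and factors that bind the response elements, 7 were higher and 8 lower (median -0.06). *Elk3*, a serum response factor partner, was 79.9 against 6.07 TPM (log2 fold change 3.53, SE 0.11), *Mapk3* 76.7 against 45.5 TPM (0.75, SE 0.06), *Mapk14* 45.2 against 79.7 TPM (-0.81, SE 0.06) and *Map2k2* 40.3 against 66.9 TPM (-0.71, SE 0.06). All genes named from these lists had limma adjusted p-values of 5.39e-10 or lower.

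**Figure D3:**
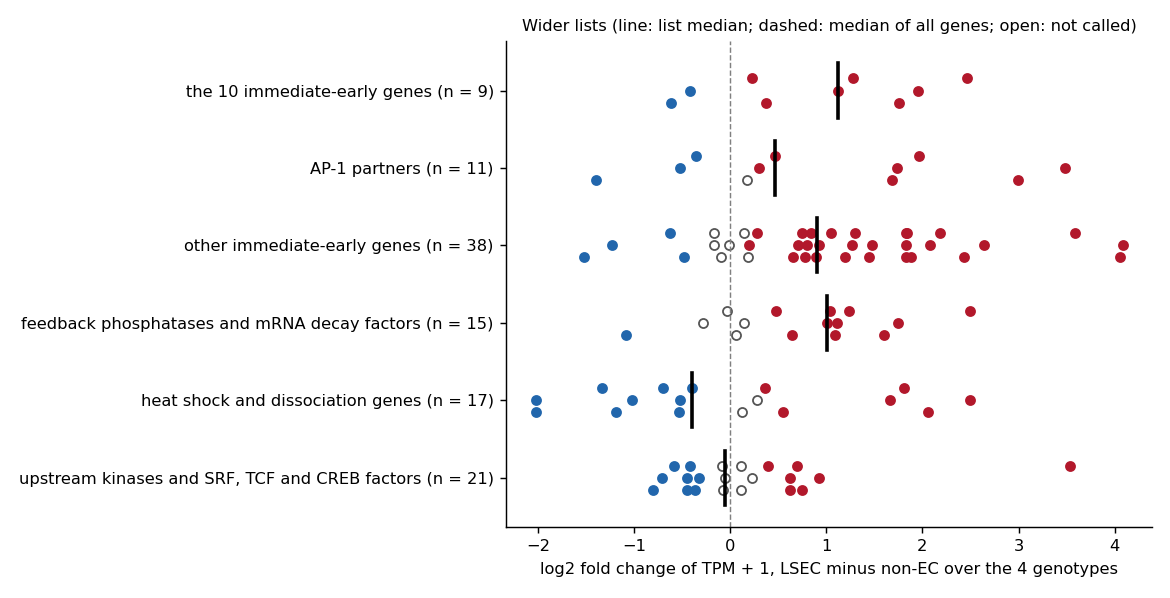
Log2 fold change of TPM + 1 between LSEC and non-EC libraries over the 4 genotypes (x axis) for each tested gene of 6 lists (y axis, spread within a row for legibility). Red points are called higher, blue points lower and open points not called at an adjusted p of 0.05, with a black line at each list's median and a dashed line at the median of all genes. The 3 lists of immediate-early and feedback genes have medians of 1.12, 0.91 and 1.01, and the heat shock list -0.40.

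The second comparison asked whether loss of CHD4, BRG1 or both in endothelial cells alters these genes in LSECs. None of the 9 tested genes was called in a mutant against control by limma. Calls were rare throughout, at 0.707% of 13444 genes for *Chd4-ECko*, 0.0223% for *Brg1-ECko* and 0.87% for *Brg1/Chd4-ECdko*. At an unadjusted p under 0.05 there were 2, 1 and 2 of the 9 genes in the same order, against 6.49%, 9.68% and 12.1% of all genes. In *Brg1-ECko* LSECs all 12 hepatoblast markers and 7 of 12 endothelial markers also had an unadjusted p under 0.05, the first higher and the second lower than control, with 0 called; their part in the values was not tested.

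*Junb* came closest to a difference in each mutant. It stood at 7.15, 7.16 and 5.63 TPM in control LSECs and at 9.995, 9.48 and 10.3 TPM in *Chd4-ECko* LSECs. *Brg1-ECko* LSECs had 9.42, 8.86 and 7.68 TPM and *Brg1/Chd4-ECdko* LSECs 8.69, 11.7 and 9.84 TPM. All 9 mutant libraries thus lay above the 3 controls. The log2 fold change against control was 0.52 for *Chd4-ECko* (95% confidence interval 0.18 to 0.86, limma adjusted p = 0.246), 0.34 for *Brg1-ECko* (0.00 to 0.68, limma adjusted p = 0.514) and 0.53 for *Brg1/Chd4-ECdko* (0.20 to 0.87, limma adjusted p = 0.165). Over all alternatives the adjusted p stayed between 0.173 and 0.864 in *Chd4-ECko* and between 0.130 and 0.508 in *Brg1/Chd4-ECdko*. The 3 mutants share the control libraries, so these differences are not independent of each other.

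*Fos* stood at 2.64, 4.03 and 3.42 TPM in control LSECs, and at 4.21, 5.28 and 6.47 TPM in *Chd4-ECko*, without overlap (log2 fold change 0.53, 95% confidence interval 0.03 to 1.03, limma adjusted p = 0.682). *Brg1-ECko* LSECs had 1.94, 3.64 and 4.42 TPM of *Fos* (log2 fold change -0.04, limma adjusted p = 0.967). *Brg1/Chd4-ECdko* LSECs had 4.51, 4.48 and 5.35 TPM (0.41, limma adjusted p = 0.471). *Jun* was 38.9, 37.3 and 49.8 TPM in controls and 50.7, 56.7 and 65.9 TPM in *Brg1/Chd4-ECdko*, also without overlap (0.45, 95% confidence interval 0.05 to 0.86, limma adjusted p = 0.362). Its log2 fold change was 0.17 in *Chd4-ECko* and -0.02 in *Brg1-ECko*. *Jund* stood at 77.7, 79.0 and 75.7 TPM in control LSECs and at 80.9, 86.9 and 103 TPM in *Brg1/Chd4-ECdko* (0.21, 95% confidence interval -0.05 to 0.47, limma adjusted p = 0.479), and overlapped control in both single mutants.

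*Atf3*, *Dusp1*, *Nr4a1*, *Egr1* and *Ier2* overlapped control in every mutant. *Atf3* averaged 14.5 ± 2.67 TPM in control LSECs, 14.8 ± 3.22 for *Chd4-ECko*, 12.3 ± 3.89 for *Brg1-ECko* and 13.8 ± 1.63 for the double mutant (SD, n = 3), with log2 fold changes of 0.02, -0.25 and -0.05. Replicate 1 of the *Brg1-ECko* LSECs, the library with the high hepatoblast markers, held 7.91 TPM of *Atf3* against 15.25 and 13.84 TPM in the others, and without it the log2 fold change was 0.02. Without that library the other tested genes lay between -0.34 (*Egr1*) and 0.28 (*Junb*) in *Brg1-ECko*, with *Fos* at 0.21, and none was called. *Dusp1* averaged 21.7 ± 2.17, 21.7 ± 3.61, 18.4 ± 5.05 and 27.1 ± 6.97 TPM in the same order. *Nr4a1* averaged 3.68 ± 0.687, 3.49 ± 0.332, 3.43 ± 1.90 and 4.94 ± 2.31 TPM. *Egr1* averaged 4.73 ± 0.161, 4.20 ± 0.861, 4.26 ± 1.25 and 5.14 ± 0.681 TPM, and *Ier2* 37.3 ± 5.26, 41.5 ± 5.20, 34.7 ± 4.98 and 43.2 ± 2.83 TPM. The intervals of these differences do not exclude moderate changes: that of *Nr4a1* in *Brg1/Chd4-ECdko* ran from -0.39 to 0.93 and that of *Atf3* in *Brg1-ECko* from -0.74 to 0.24 on the log2 scale.

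Counted by overlap, 2 of the 9 tested genes lay entirely above control in *Chd4-ECko* LSECs (*Fos* and *Junb*), against 8.7% of all genes tested. In *Brg1-ECko* it was 1 of 9 (*Junb*), against 10.9%, and in *Brg1/Chd4-ECdko* 4 of 9 (*Fos*, *Jun*, *Junb* and *Jund*), against 20.8%. *Fosb*, under the filter on low values and so not counted, averaged 0.114 TPM in controls and lay above them in *Chd4-ECko* (0.304 TPM) and in the double mutant (0.318 TPM). No gene of the 10 lay entirely below control, where 3.65%, 3.71% and 2.29% of all genes tested did. The median log2 fold change of all genes in *Brg1/Chd4-ECdko* LSECs was itself 0.16, and that of the 9 tested genes was 0.27. With mitochondrial genes left out of the total, *Jund* overlapped control and *Fos*, *Jun* and *Junb* were left, 3 of 9 against 14.7% of all genes tested.

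*Brg1/Chd4-ECdko* LSECs were also compared with each single mutant, which asks what loss of BRG1 adds to loss of CHD4 and the reverse. None of the 9 genes was called against *Chd4-ECko* (0.0372% of all genes called) or against *Brg1-ECko* (0.0967%). At an unadjusted p under 0.05 there were 0 of the 9 in the first comparison, against 10.4% of all genes, and 2 of the 9 in the second, against 6.1%. Those 2 were *Dusp1*, with a log2 fold change of 0.54 (95% confidence interval 0.08 to 1.00, limma adjusted p = 0.681), and *Jun*, with 0.47 (0.07 to 0.88, limma adjusted p = 0.695). Without replicate 1 of *Brg1-ECko*, the library with the high hepatoblast markers, they were 0.32 and 0.30, and without replicate 3 of the double mutant 0.35 and 0.38. In this comparison all 12 hepatoblast markers had negative and all 12 endothelial markers positive fold changes, with 0 called, and their part in these values was not tested. Against *Chd4-ECko*, the log2 fold changes ran from -0.12 for *Fos* to 0.32 for *Nr4a1*.

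**Figure D4:**
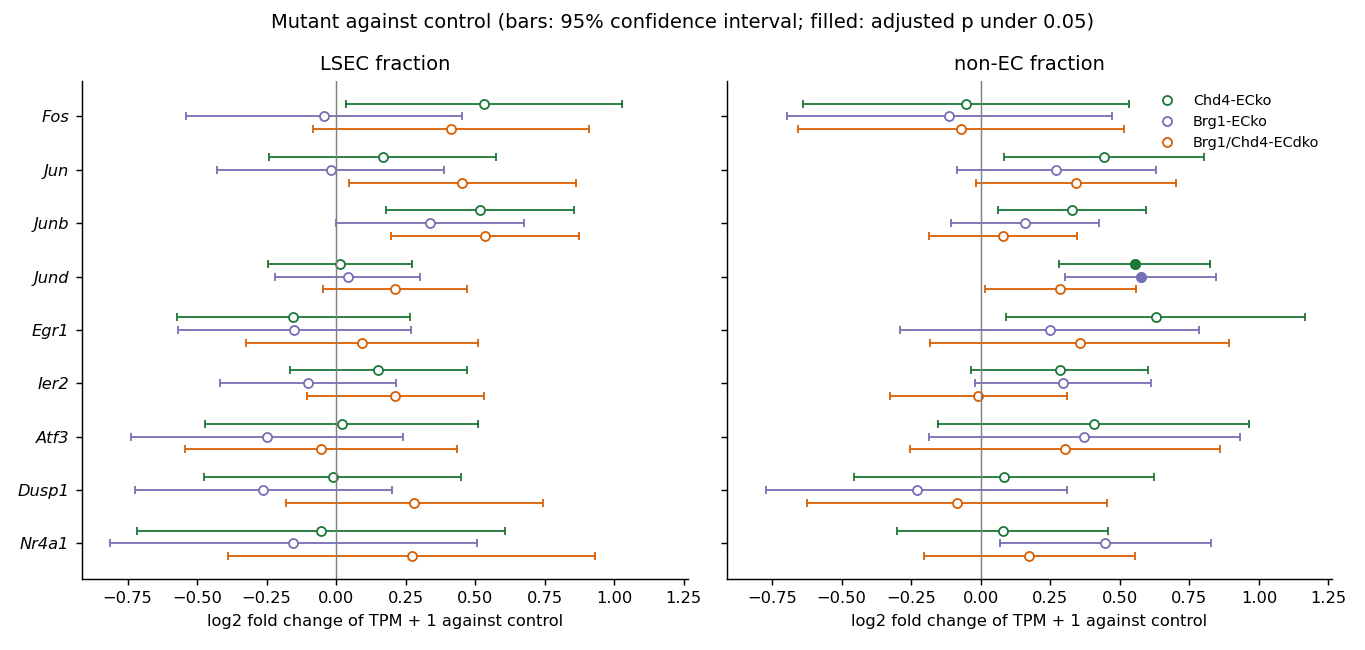
Log2 fold change of TPM + 1 of each mutant against control (x axis) for the 9 genes tested (y axis), in LSECs (left) and non-EC cells (right), with 95% confidence intervals, green for *Chd4-ECko*, violet for *Brg1-ECko* and orange for *Brg1/Chd4-ECdko*. The filled points, *Jund* in non-EC cells of *Chd4-ECko* and *Brg1-ECko*, are the ones with an adjusted p under 0.05.

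In the wider lists, single genes were called in mutant LSECs. *Cebpb*, which encodes a bZIP factor of the acute phase and of myeloid cells, rose in *Chd4-ECko*, from 18.8, 16.9 and 18.3 TPM in controls to 31.8, 37.6 and 38.5 TPM (log2 fold change 0.96, SE 0.13, limma adjusted p = 0.00337). It also rose in *Brg1/Chd4-ECdko*, to 30.8, 30.2 and 36.01 TPM (0.81, SE 0.13, limma adjusted p = 0.0105), a call that was lost without replicate 2 of the controls (adjusted p = 0.0722) or replicate 3 of *Brg1/Chd4-ECdko* (adjusted p = 0.0670). Neither change exceeded a log2 fold change of 1. *Brg1-ECko* LSECs held 25.3, 30.99 and 26.2 TPM, all above the controls as well, without a call (0.58, SE 0.13, limma adjusted p = 0.203). *Gadd45g*, a growth arrest gene, rose in *Chd4-ECko* from 18.6 ± 0.440 to 30.9 ± 5.10 TPM (SD, n = 3; log2 fold change 0.69, SE 0.14, limma adjusted p = 0.0397). That call was lost without any one of the controls or without replicate 2 or 3 of *Chd4-ECko*, with an adjusted p of up to 0.252. It was also lost with no filter on low values (adjusted p = 0.0528), in a model of the compared groups alone (adjusted p = 0.0531) and where a log2 fold change above 1 was asked for. Of 38 other immediate-early genes these were the calls, 2 for *Chd4-ECko*, 1 for *Brg1/Chd4-ECdko* and 0 for *Brg1-ECko*, against 0.707%, 0.87% and 0.0223% of all genes. In *Brg1-ECko* 4 of the 38 had an unadjusted p under 0.05, against 9.68% of all genes.

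Myeloid markers stood higher in *Chd4-ECko* LSECs, whereas their sums in the other mutants overlapped control. Their summed TPM lay between 653 and 842 for controls, between 889 and 1572 for *Chd4-ECko*, between 687 and 1070 for *Brg1-ECko* and between 798 and 1212 for the double mutant. Of 15 myeloid markers tested, 4 were called higher in *Chd4-ECko* and 0 in the other mutants, although 7 and 8 had an unadjusted p under 0.05 there. The part of myeloid cells in the values of *Cebpb*, *Fos* and *Junb* was not tested.

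Among 11 AP-1 partners, 14 feedback genes, 17 heat shock genes and 21 upstream genes, none was called against control in the model of the 12 LSEC libraries. At an unadjusted p under 0.05, *Chd4-ECko* had 2, 2, 2 and 1 genes of these lists in the same order, *Brg1-ECko* 1, 1, 2 and 2, and *Brg1/Chd4-ECdko* 3, 6, 3 and 4. All genes had such a p in 6.49%, 9.68% and 12.1% of cases for the 3 mutants. The feedback phosphatase *Dusp2* had the smallest p of its list in each mutant, at a mean of 3.89 TPM in controls, 8.86 for *Chd4-ECko* (log2 fold change 1.01, limma adjusted p = 0.0700), 2.19 for *Brg1-ECko* (-0.66, limma adjusted p = 0.427) and 7.31 for the double mutant (0.77, limma adjusted p = 0.178). In a model of the compared groups alone it was called for *Chd4-ECko* (adjusted p = 0.0257) and for the double mutant (adjusted p = 0.0467). *Dusp2* was higher in *Brg1/Chd4-ECdko* than in *Brg1-ECko* LSECs (1.43, SE 0.23, limma adjusted p = 0.0314), and it is named there because it was the one feedback gene called. Replicate 1 of *Brg1-ECko*, which stands apart, held the lowest value (1.132 TPM against 2.293 and 3.142), and without it the log2 fold change was 1.16 (adjusted p = 0.0329). The call was lost without replicate 2 of *Brg1-ECko* or any one library of the double mutant (adjusted p between 0.0697 and 0.209). It was also lost with no filter on low values (0.0675), under quantile normalization (0.127), without mitochondrial genes (0.101) and in a model of the compared groups alone (0.159). The inducible heat shock genes *Hspa1b* and *Hspa1a*, near-identical copies whose reads may be shared, had the smallest p of their list in the double mutant. *Hspa1b* stood at 4.50, 5.46 and 11.5 TPM in controls, between 7.03 and 19.9 TPM in *Chd4-ECko* and at 23.1, 23.5 and 24.3 TPM in *Brg1/Chd4-ECdko* (log2 fold change 1.69, SE 0.39, limma adjusted p = 0.0657). Its adjusted p lay between 0.0016 and 0.275 over the alternatives. *Hspa1a* had a log2 fold change of 1.85 in *Brg1/Chd4-ECdko* (SE 0.52, limma adjusted p = 0.142). *Hspa1b* and *Hspa1a* were both called with the replicate number as a block (adjusted p = 0.00464 and 0.0146) and in a model of the compared groups alone (adjusted p = 0.0016 and 0.00561), and *Hspa1b* also without replicate 3 of the controls (adjusted p = 0.0484).

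Further genes with the 3 smallest p of each list were not called in mutant LSECs. For *Chd4-ECko* the heme-degrading enzyme *Hmox1* averaged 558.7 ± 188.9 TPM against 286.2 ± 78.2 in controls (SD, n = 3; log2 fold change 0.93, limma adjusted p = 0.193), and it was called without replicate 1 of *Chd4-ECko* (adjusted p = 0.0200). *Myc*, a growth-promoting transcription factor, had a log2 fold change of 0.61 and was called in the model of the compared groups alone (adjusted p = 0.0436). Others were *Hspa1a* (1.19) and *Hspa1b* (0.84), the AP-1 partners *Batf* (0.48) and *Maff* (0.30), the feedback genes *Dusp10* (-0.46) and *Spry1* (-0.43), and *Rps6ka1* (0.30), *Crem* (0.20) and *Map2k2* (0.13).

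In *Brg1-ECko* LSECs the metallothioneins *Mt1* and *Mt2* had the largest differences of these genes, at means of 307.3 ± 198.4 against 97.67 ± 24.2 TPM and of 253 ± 167 against 72.8 ± 27.3 TPM (SD, n = 3), with log2 fold changes of 1.48 and 1.65 (limma adjusted p = 0.215 and 0.250). Without replicate 1 of *Brg1-ECko* these were 0.99 and 1.15, and that of *Hspd1* went from 0.47 to 0.12. *Klf4* (0.63), *Errfi1* (0.47), *Rps6ka3* (0.48), *Elk1* (0.35), *Spred2* (0.34) and *Fosl2* (0.26) had positive values there, and *Elk3* (-0.47), *Maf* (-0.39), *Dusp5* (-0.35) and *Batf3* (-0.31) negative ones. Each of these negative genes was lowest in replicate 1 of *Brg1-ECko*, with *Batf3* at 12.84 TPM against 30.09 and 26.22 in the other replicates. Over the alternatives *Batf3* lay between -0.53 and 0.05, so its sign was not stable. *Maf* lay between -0.54 and -0.18, *Elk3* between -0.66 and -0.30 and *Dusp5* between -0.51 and -0.21. For the double mutant *Ier3* had a log2 fold change of 0.68 (limma adjusted p = 0.182) and was called in the model of the compared groups alone (adjusted p = 0.0366). *Hmox1* (0.79), *Gadd45g* (0.55), *Spred2* (0.49), *Zfp36l2* (0.48), *Elk1* (0.40), *Maff* (0.40), *Rps6ka1* (0.38), *Mafg* (0.36) and *Map2k1* (0.29) were all positive and not called, beside the median of 0.16 of all genes.

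The third comparison took the same mutants in the non-EC fraction. Of the 9 tested genes 1 was called in *Chd4-ECko* and 1 in *Brg1-ECko*, *Jund* in both, and none in *Brg1/Chd4-ECdko*. All genes were called at 9.48% (6.17% higher), 11.7% (8.91% higher) and 0.581% in the same order. With a log2 fold change above 1 in size as well, 0 of the 9 passed in the single mutants, against 0.884% and 1.37% of all genes. At an unadjusted p under 0.05 there were 4, 2 and 1 of the 9, against 33.9%, 28% and 11.7%. *Jund* rose from 62.5, 49.1 and 51.1 TPM in controls to 67.6, 81.2 and 92.1 TPM in *Chd4-ECko* and to 75.9, 86.7 and 80.5 TPM in *Brg1-ECko* embryos. The groups did not overlap control. The log2 fold changes were 0.55 (SE 0.12, limma adjusted p = 0.0239) and 0.58 (SE 0.12, limma adjusted p = 0.0130). In *Brg1/Chd4-ECdko* *Jund* was 69.3, 65.6 and 63.2 TPM, just above the highest control (0.29, 95% confidence interval 0.01 to 0.56, limma adjusted p = 0.390).

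The *Jund* call in *Chd4-ECko* was lost without replicate 2 or 3 of the non-EC controls or replicate 2 or 3 of *Chd4-ECko*, with adjusted p-values between 0.0729 and 0.0773, and in a model of the compared groups alone (adjusted p = 0.142). The call in *Brg1-ECko* was lost without replicate 2 of the controls (adjusted p = 0.0575). Hepatoblast markers also stood higher in the mutants than in controls: 10 of 12 were called higher in *Chd4-ECko*, 12 of 12 for *Brg1-ECko* and 1 of 12 for the double mutant. Their summed TPM lay between 19470 and 21720 for controls, between 30520 and 40420 for *Chd4-ECko*, between 29230 and 42930 for *Brg1-ECko* and between 25230 and 33730 for the double mutant. Within *Chd4-ECko*, sums of 40420, 30880 and 30520 TPM went with 67.6, 81.2 and 92.1 TPM of *Jund*. Within *Brg1-ECko*, sums of 42930, 38550 and 29230 TPM went with 75.9, 80.5 and 86.7 TPM, so the order was opposite in each single mutant. The double-mutant library with the highest sum, 33730 TPM, also had the highest *Jund* of its group, 69.3 TPM. Erythroid markers were called lower in 2 of 11 and 3 of 11 in the single mutants. The part of the cell composition in the *Jund* values was not tested.

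**Figure D5:**
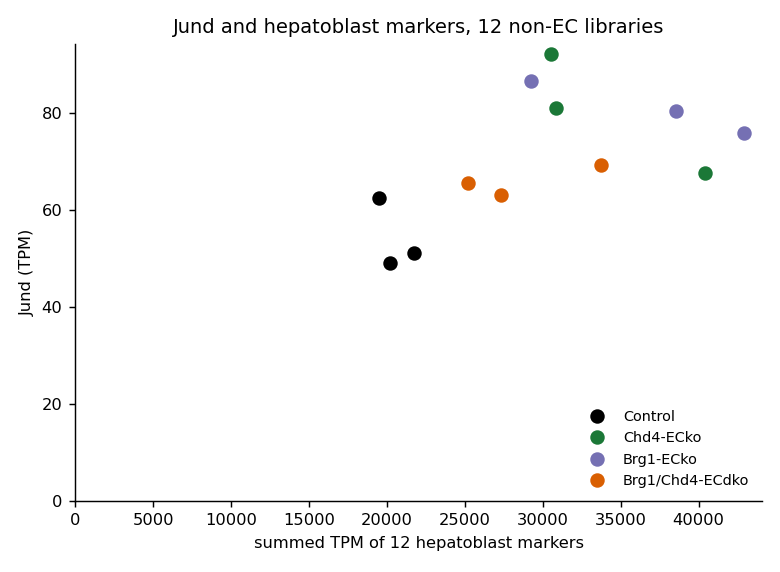
*Jund* in TPM (y axis, from 0) against the summed TPM of 12 hepatoblast markers (x axis, from 0) in the 12 non-EC libraries, coloured by genotype. The 3 control libraries lie lowest in marker sum, between 19470 and 21720 TPM, and the 6 single-mutant libraries lie above them in both measures. Within each single mutant the library with the highest marker sum has the lowest *Jund*.

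The other genes of the family were not called in non-EC cells. *Jun* stood at 10.59, 6.99 and 10.51 TPM in controls and at 11.5, 12.5 and 14.8 TPM in *Chd4-ECko* (log2 fold change 0.44, 95% confidence interval 0.08 to 0.80, limma adjusted p = 0.0903). It was called under quantile normalization (adjusted p = 0.0462) and without replicate 1 of *Chd4-ECko* (adjusted p = 0.0426). *Junb* averaged 12.5 ± 1.35 TPM in controls and 15.9 ± 0.845 in *Chd4-ECko* (SD, n = 3; log2 fold change 0.33, limma adjusted p = 0.0896). *Egr1* averaged 5.08 ± 1.43 TPM in controls and 8.27 ± 1.06 in *Chd4-ECko* (0.63, 95% confidence interval 0.09 to 1.17, limma adjusted p = 0.101). *Nr4a1* averaged 0.746 ± 0.334 TPM in controls and 1.35 ± 0.147 in *Brg1-ECko* (0.45, limma adjusted p = 0.117). *Fos* averaged between 1.26 and 1.48 TPM in the 4 genotypes, with log2 fold changes between -0.11 and -0.05. *Ier2*, *Atf3* and *Dusp1* overlapped control in every mutant.

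By overlap, 4 of the 9 tested genes lay entirely above control in *Chd4-ECko* non-EC cells (*Jun*, *Junb*, *Jund* and *Egr1*), against 15.8% of all genes tested. In *Brg1-ECko* it was 3 of 9 (*Jun*, *Jund* and *Nr4a1*), against 21.9%, and for the double mutant 1 of 9 (*Jund*), against 16%. With mitochondrial genes left out of the total these were 4, 2 (*Jund* and *Nr4a1*) and 0 of 9, against 14.2%, 18.8% and 15.1%. *Fosb* overlapped control in each mutant. None lay entirely below control, where 11.6%, 18% and 8.01% of all genes tested did. Of 36 other immediate-early genes tested, 3 were called higher in *Chd4-ECko* non-EC cells, against 6.17% of all genes, and 6 in *Brg1-ECko*, against 8.91%, where 1 was also called lower. None was called for the double mutant. *Maff*, a small MAF protein, was the one AP-1 partner called in all 3 mutants, and it is named because of that. It rose from a mean of 7.31 ± 0.539 TPM in controls to 14.4 ± 1.41 in *Chd4-ECko*, 14.5 ± 1.34 for *Brg1-ECko* and 12.9 ± 1.03 for the double mutant (SD, n = 3), with log2 fold changes of 0.88, 0.90 and 0.75 and limma adjusted p-values of 0.00425, 0.00154 and 0.0348. The call in the double mutant was lost without any one of its libraries or of the controls (adjusted p between 0.0798 and 0.147), under quantile normalization (0.0573) and in a model of the compared groups alone (0.0511). Other listed genes called in both single mutants, also named after their values were seen, were *Hes1* (log2 fold change 0.64 and 0.88), *Errfi1* (0.67 and 0.80), *Id3* (0.84 and 1.12) and *Mapk3* (0.47 and 0.45), all higher, and *Map2k4*, lower (-0.32 and -0.38), with limma adjusted p-values up to 0.0372. In *Chd4-ECko* all 5 calls were lost in a model of the compared groups alone (adjusted p between 0.128 and 0.174). Those of *Hes1*, *Errfi1*, *Id3* and *Map2k4* were lost there without any one of the controls, and that of *Mapk3* without replicate 2 of *Chd4-ECko* (adjusted p = 0.0517). The hepatoblast markers stood higher in the same libraries, as given above, and their part in the values of these genes was not tested.

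Whether a mutant's effect differed between the fractions was tested as an interaction. None of the 9 genes was called for *Chd4-ECko*, *Brg1-ECko* or *Brg1/Chd4-ECdko*, against 1.02%, 1.04% and 0.0581% of all genes. At an unadjusted p under 0.05 there were 2, 1 and 1 of the 9, against 19.1%, 17.9% and 7.57%. *Jund* came closest for the single mutants, with an effect in LSECs minus that in non-EC cells of -0.54 in *Chd4-ECko* (95% confidence interval -0.89 to -0.19, limma adjusted p = 0.120) and of -0.53 in *Brg1-ECko* (-0.89 to -0.18, limma adjusted p = 0.117). The first was called without replicate 1 of the *Chd4-ECko* non-EC libraries (-0.66, adjusted p = 0.0109) and the second under quantile normalization (-0.56, adjusted p = 0.0368). *Egr1* had a difference of -0.78 in *Chd4-ECko* (95% confidence interval -1.43 to -0.13, limma adjusted p = 0.198) and *Junb* of 0.45 in *Brg1/Chd4-ECdko* (0.06 to 0.84, limma adjusted p = 0.571). The rise of *Jund* in non-EC cells is therefore not shown to differ from its values in LSECs.

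Finally, the genes were followed from library to library within groups. In *Brg1/Chd4-ECdko* LSECs replicate 1 held the lowest value of 8 of the 10 genes and replicate 3 the highest of 6. In *Chd4-ECko* LSECs replicate 1 was lowest for 7 and replicate 3 highest for 7. The mitochondrial share was 27.4% in replicate 1 and 13.9% in replicate 3 of *Brg1/Chd4-ECdko*, and 31.5% and 14.1% in those of *Chd4-ECko*. With mitochondrial genes left out of the total, replicate 1 was lowest for 4 genes in *Brg1/Chd4-ECdko* and for 3 in *Chd4-ECko*, and replicate 3 highest for 6 and for 4. In *Brg1-ECko* LSECs replicate 1 was lowest for 6 genes, and for 7 without mitochondrial genes. Its mitochondrial share was the lowest of that group, at 17.1% against 18.2% and 25.7%. In the non-EC fraction *Brg1/Chd4-ECdko* replicate 3 was lowest for 9 of 10 genes, with or without mitochondrial genes, at a mitochondrial share of 6.62% against 6.65% and 6.43% in the other replicates.

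After the group means were subtracted, the 36 pairs of the 9 tested genes had a median Pearson correlation of 0.24 over the 12 LSEC libraries and of 0.18 over the 12 non-EC libraries, with 27 of 36 above 0 in each. Pairs ranged from -0.44 to 0.89 in LSECs and from -0.66 to 0.65 in non-EC cells. The genes whose deviations were most like the mean deviation of the 9 were *Ccnyl1* (r = 0.992), *Gucy1b1*, *Ggta1*, *Mfap1a* and *Actr1a* over the LSEC libraries, against a median of 0.27 for all genes. Over the non-EC libraries they were *Flywch2* (r = 0.942), *Ctsf*, *Tmem129*, *Clasrp* and *Zfp740*, against a median of 0.11. The points share their library and its total, and *Ccnyl1* and *Flywch2* were picked as the highest of 13435 and 12214 genes.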

How the data were processed

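RNA of 24 libraries was used. The authors sequenced poly(A) RNA, trimmed repeated guanines and mapped with CLC Genomics Workbench on GRCm39/mm39. The authors deposited gene-level TPM, which sum to 1000000 per library. TPM hold no depth, so no counting interval could be given, and a count model was not possible. The 8 deposited columns of group means matched the replicate means to within 6.67e-06 TPM and were not used. The log2(TPM + 1) values were fitted by limma 3.58.1 (R 4.3.3). A gene entered when 3 or more libraries held 1 TPM or more, in models of the 12 LSEC libraries (13444 genes), the 12 non-EC libraries (12223) and all 24 (13775), with a mean per group and variances moderated with a trend. P-values are two-sided and adjusted by the Benjamini-Hochberg method over all genes. Fold changes on this scale understate the change of low genes. The labels do not say that replicates of a group came from separate litters, so p-values measure the spread between these libraries. Replicates of a group correlated at 0.981 to 0.997, and no pair was identical. Within a genotype, LSEC and non-EC libraries with 1 replicate number in the labels deviated together in 12 of 12 pairs (correlation 0.124 to 0.411). The genes and lists were chosen with earlier results of these data known. Named genes are the 10 members, from each wider list the 4 with the smallest p between fractions and the 3 with the smallest p per mutant in LSECs, listed genes called in a mutant where named as such (an item under this rule is not reported here), and 5 genes per fraction of like pattern. Upstream sequence came from GRCm39 with GENCODE gene models. Figures used python 3.11.15 and matplotlib 3.10.9.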

Additional observations from a re-analysis of the deposited data

How the results depend on the processing

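Each comparison was repeated with a pseudocount of 0.1 TPM, no filter, a minimum mean of 5 TPM, quantile normalization, TPM without mitochondrial genes, no trend, the replicate block, a threshold on the log2 fold change, only the groups compared (all groups enter the comparison of fractions over the 4 genotypes, so it has no such model), and without each library in turn. Of 2034 values of the 9 tested genes under these alternatives, 2010 kept their side of the threshold and their direction where called, 19 lost a call, 5 gained one and 0 changed sign with a call. Of the 2010, 69 had the other sign with no call in either setting. The number of genes called against control in LSECs stayed at 0 in every alternative, as it did for *Brg1/Chd4-ECdko* against each single mutant and for *Brg1/Chd4-ECdko* against control in non-EC cells. Between fractions over the 4 genotypes the 9 calls fell to 5 with a fold change above 1 and stayed at 9 with each library left out. In controls the 8 calls fell to 4 with that threshold and lay between 7 and 8 with a library left out. Quantile normalization in controls lost *Fos* and called *Egr1* (-0.52, limma adjusted p = 0.0298). In *Chd4-ECko* non-EC cells the 1 call became 2 under quantile normalization, 0 with the fold threshold and 0 in the compared groups alone, and lay between 0 and 2 with a library left out. In *Brg1-ECko* non-EC cells it became 0 with the fold threshold and lay between 0 and 1. The interaction count for *Chd4-ECko* lay between 0 and 1 with a library left out, and that for *Brg1-ECko* became 1 under quantile normalization. The cause of these changes was not tested, beyond the stricter rule of the fold threshold.

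Leaving out mitochondrial genes moved the median log2 fold change of all genes between fractions from -0.00 to 0.24, and quantile normalization moved it to -0.14. Under both, all 9 tested genes kept their direction, but not their size. Quantile normalization gave *Fos* 0.43, *Nr4a1* 0.58, *Jund* 0.43 and *Egr1* -0.93. Without mitochondrial genes *Jund* was 0.48, *Ier2* 0.63, *Junb* -0.38 and *Egr1* -0.21, the last without its call. Of 1654 values of named genes of the wider lists, 129 lost a call, 10 gained one and 0 changed sign with a call. Of 770 counts of these lists, 34 moved by over 1.5 times, among them those of *Cebpb*, *Gadd45g*, *Hspa1a* and *Hspa1b* given here or above. The number of upstream genes called higher went from 7 to 12 without mitochondrial genes, and that of other immediate-early genes called lower from 4 to 10 and of feedback genes called lower from 1 to 4 under quantile normalization. These list alternatives, and the library order without mitochondrial genes, were chosen after seeing the data.

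The labels number replicates 1 to 3 in each group. Within a fraction, same-numbered libraries of different genotypes had correlations of deviations from -0.04 to 0.39 in LSECs and from -0.33 to 0.50 in non-EC cells, so the numbers were not taken as pairs within a fraction. The mean was 0.171 against -0.085 for other numbers in LSECs and 0.127 against -0.067 in non-EC cells, and 10 of 12 and 6 of 12 libraries correlated best with their own number, a hint from the data and not from the design. The replicate block, by number within a fraction and by embryo pair between fractions, left the count of called members at 0 in LSEC mutants, at 1 in *Chd4-ECko* and 1 in *Brg1-ECko* non-EC cells, at 9 between fractions and at 8 in controls. With the block, *Hspa1b* and *Hspa1a* were called in *Brg1/Chd4-ECdko* LSECs (adjusted p = 0.00464 and 0.0146).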
